A study of Macaca fascicularis with 12 samples.

Results

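The prostanoid and leukotriene pathway was followed through 10 genes in the iliac artery of female cynomolgus monkeys: PTGS1, PTGS2, PTGIS, PTGIR, PTGES, TBXAS1, TBXA2R, ALOX5, ALOX5AP and LTA4H. A probe counted for a gene when the platform annotation gave that gene as its only symbol. By this rule 9 of the 10 genes had 12 probes, among 18160 genes and 53877 probes tested. ALOX5AP had no such probe. Its only probe is annotated to both ALOX5AP and the chemokine gene CCL4, and its values are given below as those of a shared probe.

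The 12 animals gave 1 artery and 1 array each and fell into 3 groups by the area of atherosclerotic plaque. Plaque covered 0 to 0.113 mm2 in the small group (n = 4, of which 2 had no plaque), 0.30 to 0.542 mm2 in the medium group (n = 5) and 0.61 to 1.003 mm2 in the large group (n = 3). All animals, the small group included, were over 20 years old, had eaten a high fat diet for 8 years and had been without ovaries for 4 years, and the labels list no other treatment. There is therefore no animal on an ordinary diet or with ovaries among them, and the RNA came from the artery biopsy as a whole and not from plaque alone.

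Prostanoids and leukotrienes are short-lived signals made from arachidonic acid, a fatty acid that phospholipases release from membranes. The cyclooxygenases encoded by PTGS1 and PTGS2 turn it into prostaglandin H, from which separate synthases make prostacyclin, thromboxane or prostaglandin E. In arteries, prostacyclin from the vessel wall relaxes smooth muscle and restrains platelets, whereas thromboxane from platelets and macrophages contracts smooth muscle and activates platelets. In leukocytes, 5-lipoxygenase (ALOX5), helped by its activating protein (ALOX5AP), makes the leukotriene precursor that the hydrolase encoded by LTA4H turns into an attractant of neutrophils.

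Values are linear intensities, deposited on a scale on which the median of each array is close to 1, and tests were made on their log2. The probes are human, so intensities are compared between animals for the same probe and not between genes. Each array gave 53832 to 53867 values, and precision is limited by how many arrays there are. The smooth muscle markers ACTA2 and MYH11 and the endothelial marker PECAM1 read far above the array median in every artery, with lowest values of 169, 287 and 19.8. Not all markers of these cell types did. Smooth muscle ACTG2 and endothelial KDR, EGFL7 and ROBO4 read below it in every artery, with highest values of 0.616, 0.434, 0.431 and 0.578. The identity numbers of small replicate 4 and medium replicate 5 lie apart from those of the other 10 animals, for which the labels give no reason, and where a call or a size changed clearly without both of them the value is given as well.

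Of the 12 member probes, 1 passed the threshold in arteries with medium plaque against those with small plaque, and it was lower. That was TBXA2R, the receptor for thromboxane, at -1.46 ± 0.33 log2 units (SE of the limma fit, n = 5 and 4; limma adjusted p 0.0344). Of all probes tested, 3.14% passed in that comparison and 1.17% passed as lower. PTGIS, prostacyclin synthase, was lower in every medium and large artery than in any small one, as for 2.54% of all probes. It did not pass. In arteries with large plaque against those with small, limma called 0 of the 12 probes. Of all probes 1.15% were called, 0.948% as higher and 0.197% as lower. An unadjusted limma p under 0.05 was reached there by 5 of the 12, beside 16.1% of all probes. The shared ALOX5AP/CCL4 probe, not counted among the 12, was higher in both comparisons, where 1.97% and 0.948% of all probes passed as higher.

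TBXA2R had an intensity of 7.25, 7.85, 10.4 and 12.2 in the small group, 3.67, 4.76, 3.05, 3.61 and 2.18 in the medium group and 7.68, 4.65 and 2.31 in the large group, each group in order of plaque area. Every medium artery lay below every small one, as was so for 4.34% of all probes. The large group was spread out: the artery of 0.61 mm2 stood within the range of the small group, and that of 1.003 mm2 read nearly as low as the lowest medium artery. The intensity was 2.76-fold lower in medium than in small, with a 95% interval of the log2 difference from -2.18 to -0.74. In large against small the difference was -1.08 ± 0.38 (SE, n = 3 and 4; limma adjusted p 0.185). It was -1.49 without large replicate 2, the artery of 0.61 mm2, and -0.63 without large replicate 1. The call in medium against small was lost under 11 of 25 alternatives, with limma adjusted p-values from 0.0160 to 0.0933 over the 25. Among these were the fits without any 1 of the 4 small arteries or without medium replicate 1, 2, 4 or 5, and the fit that leaves out small replicate 4 and medium replicate 5 together, at -1.57 (limma adjusted p 0.0908).

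TBXAS1, which encodes thromboxane synthase, read 1.13, 1.24, 1.43 and 1.12 in the small group, 1.45, 1.42, 2.19, 1.78 and 2.07 in the medium group and 1.49, 1.85 and 1.81 in the large group. All large arteries lay above all small ones, and 1 medium artery fell just inside the small range. The difference was 0.52 ± 0.18 in medium against small (limma adjusted p 0.137) and 0.48 ± 0.20 in large against small (limma adjusted p 0.262). Neither passed. Groups that do not overlap were found, as higher, for 5.99% of all probes in large against small.

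PTGIS read 211, 230.0, 245 and 269 in the small group, 191, 162, 66.8, 156 and 74.9 in the medium group and 177, 102 and 135 in the large group. The 8 arteries of medium and large plaque all lay below the 4 of small plaque, as they did for 2.54% of all probes. The 2 lowest values belonged to medium replicates 1 and 4, which also had the 2 highest TBXAS1 intensities of the 12 arteries. PTGIS differed by -0.99 ± 0.32 in medium against small (limma adjusted p 0.118), with a 95% interval from -1.68 to -0.31, and by -0.82 ± 0.36 in large against small (limma adjusted p 0.29).

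PTGIR, the prostacyclin receptor, gave narrow groups that overlapped throughout. It read 2.37, 2.79, 3.09 and 2.15 in the small group, 2.64, 2.46, 2.56, 3.03 and 2.67 in the medium group and 2.23, 2.67 and 2.12 in the large group. The 95% interval of the log2 difference ran from -0.29 to 0.39 for medium against small, and from -0.53 to 0.24 for large against small. These intervals leave out a change of the size seen for PTGIS in medium arteries, although the difference between the genes was not tested.

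**Figure D1:**
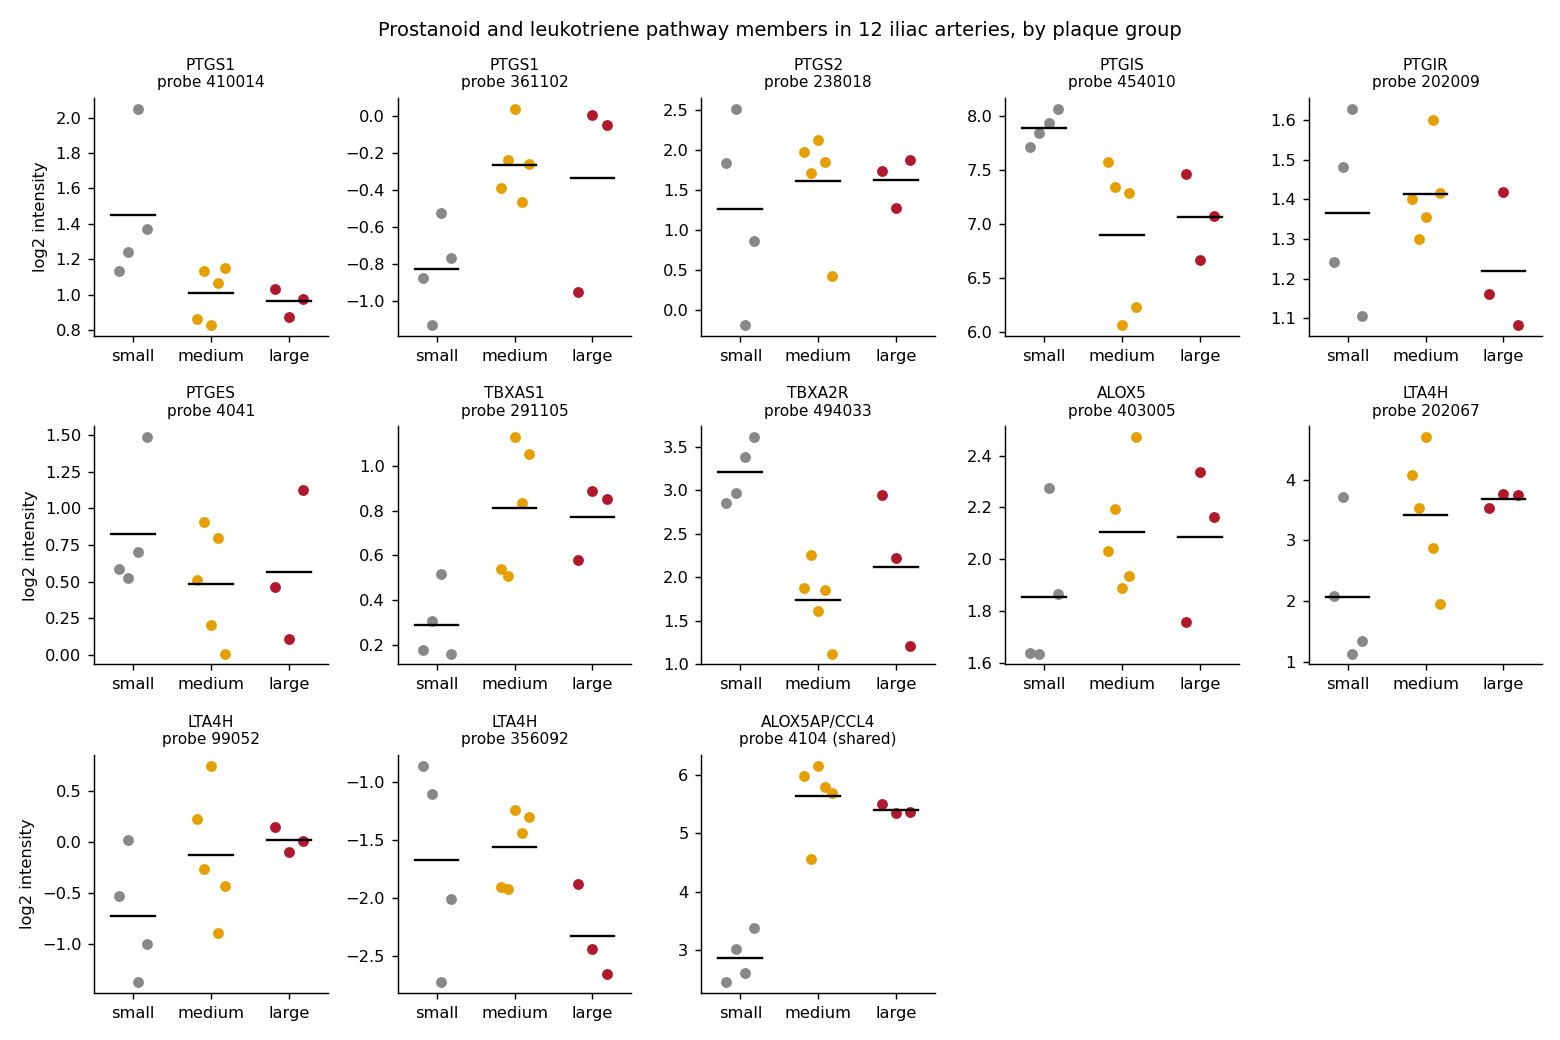
Log2 intensity (vertical axis, a separate scale in each panel) of the 12 member probes and the shared ALOX5AP/CCL4 probe in the 4 small, 5 medium and 3 large plaque arteries. Points are arteries, in order of plaque area within a group, and black lines are group means. All medium arteries lie below all small ones for TBXA2R and PTGIS, while PTGS2 and PTGIR overlap.

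Of the cyclooxygenases, PTGS2 encodes the inducible form and is known for its induction in inflammation. It read 3.59, 5.72, 0.88 and 1.82 in the small group, 3.94, 3.29, 4.35, 3.59 and 1.35 in the medium group and 3.34, 2.42 and 3.68 in the large group. The small group alone spanned the whole range of the 12 arteries, from 0.88 to 5.72. PTGS2 differed by 0.36 ± 0.49 in medium against small (limma adjusted p 0.746) and by 0.37 ± 0.56 in large against small (limma adjusted p 0.794). The 95% interval in medium against small ran from -0.71 to 1.43. Without small replicate 4 and medium replicate 5 it was 0.72 in medium and 0.79 in large. Without small replicate 3 the difference turned to -0.12 in medium and -0.11 in large.

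PTGS1, the form present in most tissues, had 2 probes that went opposite ways. On probe 410014 it read 2.19, 2.36, 4.14 and 2.58 in the small group, 1.82, 2.20, 1.78, 2.09 and 2.22 in the medium group and 2.05, 1.84 and 1.97 in the large group. The difference on that probe was -0.44 ± 0.19 in medium against small and -0.49 ± 0.22 in large against small (limma adjusted p 0.248 and 0.3). The large arteries all lay below the small ones, as for 8.52% of all probes. On the dimmer probe 361102 it read 0.545, 0.456, 0.694 and 0.587 in the small group, 0.765, 0.848, 1.03, 0.724 and 0.835 in the medium group and 0.516, 1.00 and 0.968 in the large group. Here every medium artery was above every small one, as for 3.94% of all probes, and the difference was 0.56 ± 0.22 in medium against small (limma adjusted p 0.195) and 0.49 ± 0.25 in large against small. No direction is given for PTGS1, since neither probe passed and they oppose each other.

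PTGES, the inducible synthase of prostaglandin E, read 1.5, 1.44, 1.63 and 2.80 in the small group, 1.43, 1.88, 1.15, 1.74 and 1.01 in the medium group and 1.38, 1.08 and 2.18 in the large group. The groups overlapped. It differed by -0.34 ± 0.28 in medium against small (limma adjusted p 0.564) and by -0.26 ± 0.32 in large against small (limma adjusted p 0.736). With small replicate 4 and medium replicate 5 left out, the medium difference was -0.52.

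Of the leukotriene genes, ALOX5 read 3.11, 3.11, 4.85 and 3.64 in the small group, 4.09, 4.57, 3.71, 3.82 and 5.54 in the medium group and 3.38, 5.04 and 4.47 in the large group. The groups overlapped, and the 95% interval of the log2 difference ran from -0.18 to 0.68 in medium against small and from -0.26 to 0.72 in large against small.

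LTA4H had 3 probes. On the brightest, 202067, it read 4.26, 13.1, 2.20 and 2.54 in the small group, 16.8, 11.6, 25.9, 7.34 and 3.86 in the medium group and 11.6, 13.6 and 13.4 in the large group. The high small value was that of replicate 4, which lay among the large arteries. The difference was 1.35 ± 0.58 in medium against small (limma adjusted p 0.236) and 1.61 ± 0.66 in large against small (limma adjusted p 0.255). Without small replicate 4 and medium replicate 5 the first was 2.04 (limma adjusted p 0.0966) and the second 2.16 (limma adjusted p 0.124). Probe 99052 differed by 0.59 ± 0.34 and 0.73 ± 0.38 in the same comparisons, and by 1.03 and 0.98 without both animals. The dimmest probe, 356092, read between 0.151 and 0.552 in all arteries. It differed by 0.11 ± 0.35 in medium against small (0.27 without both animals) and by -0.65 ± 0.40 in large against small (-0.46 without both). No probe of LTA4H passed.

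The shared ALOX5AP/CCL4 probe read 5.48, 8.16, 6.12 and 10.4 in the small group, 63.2, 23.5, 71.3, 55.5 and 51.7 in the medium group and 45.1, 40.9 and 41.2 in the large group. Every medium and large artery was above every small one, as for 2.62% of all probes. It rose by 2.77 ± 0.30 log2 units in medium against small (limma adjusted p 6.74e-04) and by 2.54 ± 0.35 in large against small (limma adjusted p 0.00537), which is 6.81-fold and 5.81-fold. Both calls held under the 25 alternatives run. How much of this signal comes from ALOX5AP and how much from CCL4 cannot be told from the probe. Another probe, annotated to CCL4 and its near copies CCL4L1 and CCL4L2, rose by 1.00 ± 0.19 in medium against small (limma adjusted p 0.0167) and differed by 0.85 ± 0.22 in large against small (limma adjusted p 0.0818). It was looked at after the values of the shared probe were seen.

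**Figure D2:**
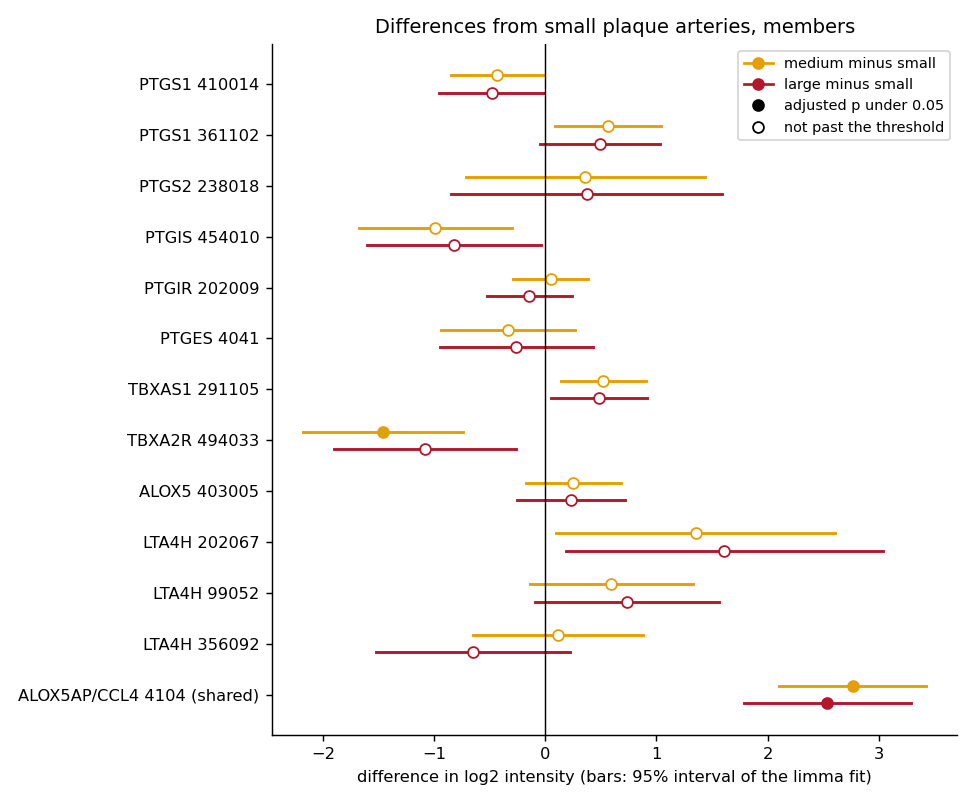
Difference in log2 intensity from the small group (horizontal axis) for the 12 member probes and the shared probe, for medium minus small and large minus small. Points are estimates of the limma fit, bars their 95% intervals, and filled points passed an adjusted p of 0.05. TBXA2R is filled in medium at -1.46, and the shared ALOX5AP/CCL4 probe is filled in both comparisons at 2.77 and 2.54.

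As a list, the 12 member probes had a median log2 difference of 0.18 in medium against small and 0.04 in large against small. The medians were -0.09 and -0.10 over all probes tested, and -0.04 and -0.05 over the 23267 of a single symbol. An unadjusted p under 0.05 was reached by 6 of the 12 in medium against small, beside 18.3% of all probes, and by 5 in large against small, beside 16.1%. Of the 23267 probes of a single symbol, 5160 and 4656 reached it. These shares describe a list that was chosen with earlier results of these data known. Whether it differs from other genes was not tested.

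Large and medium plaque were compared directly to see whether members differed between arteries that both carried plaque. The differences of the 12 probes ran from -0.77, on the dimmest LTA4H probe, to 0.38, for TBXA2R. Limma called 0 of the 12, none with an unadjusted p under 0.05, in a comparison where 0.0% of all probes were called and 5.04% had an unadjusted p under 0.05. The groups of all 12 overlapped, while 2.53% of all probes lay wholly higher and 2.93% wholly lower in large. The interval for TBXA2R ran from -0.40 to 1.16 and that for PTGIS from -0.58 to 0.92, so a further change of moderate size in either gene was not detectable with 3 and 5 arteries.

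Area itself was also fitted as a slope. Over all 12 arteries limma called 0 of the 12 member probes and 0.583% of all probes (0.483% rising and 0.1% falling), and 4 of the 12 had an unadjusted p under 0.05, beside 15.9% of all probes. TBXA2R had a slope of -1.68 ± 0.53 log2 units per mm2 (SE, n = 12; limma adjusted p 0.146), PTGIS one of -1.22 ± 0.45 (limma adjusted p 0.21) and TBXAS1 one of 0.70 ± 0.24 (limma adjusted p 0.179). Such a slope does not separate a graded change from a step between the small group and the rest. Within the 8 medium and large arteries the slopes were -0.39 ± 0.87 for TBXA2R, -0.35 ± 0.85 for PTGIS and 0.28 ± 0.41 for TBXAS1. Limma called 0 of the 12 there, with 1 under an unadjusted p of 0.05, the dimmest LTA4H probe, and 0.0% of all probes called, 5.5% of them at an unadjusted p under 0.05.

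Of 47 other genes of the pathway, 40 had probes of their own and 2 had shared probes, CBR1 and GGT1. For 5 the annotation named no tested probe. For 39 of the 40 there was a probe with values on all arrays. In medium against small 3 of these 39 rose and 0 fell, beside 1.97% of all probes higher and 1.17% lower. In large against small 2 rose and 0 fell, beside 0.948% and 0.197%. The median log2 difference of the 39 was 0.16 in medium and 0.20 in large, beside -0.09 and -0.10 over all probes. Over the 23267 probes of a single symbol, as these are, the medians were -0.04 and -0.05. Of those 23267, 775 rose and 350 fell in medium, and 403 rose and 55 fell in large. A gene with several probes was counted by the brightest over all arteries. With the brightest in the small group instead, a choice added after the values were seen, the probe of 1 gene changed, OXER1, and the counts became 2 and 1.

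In arachidonate release 1 of 6 genes rose, PLA2G2A, a secreted phospholipase that also acts on lipoproteins. It read 0.482, 1.10, 0.732 and 2.58 in the small group, 17.4, 4.19, 26.5, 58.4 and 2.83 in the medium group and 36.2, 8.45 and 53.2 in the large group. Every medium and large artery lay above every small one, as for 2.62% of all probes, but medium arteries ran from 2.83 to 58.4. It rose by 3.66 ± 0.88 in medium against small (limma adjusted p 0.0449) and by 4.66 ± 1.00 in large against small (limma adjusted p 0.0485). These calls were lost under 13 and 11 of 25 alternatives. With small replicate 4 and medium replicate 5 both left out the differences were 3.15 and 4.71 (limma adjusted p 0.123 and 0.0685). Single arteries whose omission ended the call in medium were small replicates 2, 3 and 4, medium replicates 1, 2 and 5 and large replicates 1 and 2. In large they were small replicates 2, 3 and 4, medium replicates 2 and 3 and all 3 large arteries. PLA2G4A, the cytosolic phospholipase that feeds both branches, differed by 0.44 ± 0.18 in medium against small (limma adjusted p 0.21).

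Among 5 receptors for leukotrienes and lipoxins, 1 passed on one of its probes only: OXER1, which binds an oxidised product of 5-lipoxygenase. On probe 11017 it read 1.76, 2.38, 1.93 and 4.13 in the small group, 3.97, 8.56, 5.91, 7.56 and 10.5 in the medium group and 5.93, 7.99 and 9.38 in the large group. All but 1 of the medium and large arteries lay above the highest small artery. It rose by 1.53 ± 0.31 in medium against small (limma adjusted p 0.0236) and by 1.67 ± 0.36 in large against small (limma adjusted p 0.0486), and its slope of 2.30 ± 0.43 per mm2 over 12 arteries also passed (limma adjusted p 0.0384). These 3 calls were lost under 5, 14 and 10 of 25 alternatives, and with small replicate 4 and medium replicate 5 both left out the limma adjusted p-values were 0.0943, 0.109 and 0.165. Single arteries whose omission ended the call in medium were small replicates 2 and 3 and medium replicates 4 and 5. In large they were small replicates 2, 3 and 4, medium replicates 1, 3 and 5 and all 3 large arteries. For the slope they were all 4 small arteries, medium replicate 5 and large replicates 2 and 3. The other OXER1 probe, 107059, differed by -0.05 ± 0.19 and -0.17 ± 0.22, so that the probes of OXER1 disagree. Probe 11017 was the brighter over all arteries, by a mean log2 intensity of 2.32 beside 2.25, but only through the medium and large arteries. In the small group its mean log2 intensity was 1.26, beside 2.31 for probe 107059. The choice of probe 11017 therefore rested on the values it reports, and no direction is given for OXER1. LTB4R, a receptor for the product of LTA4H, differed by 0.41 ± 0.18 in medium against small (limma adjusted p 0.26).

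In transport and breakdown 1 of 5 genes rose, PTGR1, a reductase that inactivates prostaglandins and leukotrienes. It read 0.204, 0.673, 0.630 and 0.752 in the small group, 1.10, 1.12, 1.52, 1.31 and 2.01 in the medium group and 1.02, 1.57 and 1.11 in the large group. The medium and large arteries all lay above the small ones, as for 2.62% of all probes. It rose by 1.45 ± 0.36 in medium against small (limma adjusted p 0.0489), a call lost under 16 of 24 alternatives, and differed by 1.26 ± 0.40 in large against small (limma adjusted p 0.153). Without small replicate 2, its lowest artery, the first was 1.01 (limma adjusted p 0.0585). The call was also lost without any other 1 artery except small replicate 1, and with small replicate 4 and medium replicate 5 both left out (limma adjusted p 0.0985).

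None of the remaining sub-lists held a called gene by limma, and the values that follow are for medium against small. Of 5 other prostanoid synthases, HPGDS, a prostaglandin D synthase of mast cells and macrophages, had the smallest p, at -0.68 ± 0.30 in medium against small (limma adjusted p 0.248), and it was the 1 of 5 with an unadjusted p under 0.05. The 7 other prostanoid receptors included 0 with an unadjusted p under 0.05 on their brighter probes, where PTGER4 differed by 0.28 ± 0.16, while a very dim probe of PTGDR, with values down to -0.0228, differed by -0.98 ± 0.27 (limma adjusted p 0.0738). The 3 lipoxygenases with complete probes had differences from -0.12 to -0.05, and ALOX12B, measured on all arrays but 1, differed by 0.31 ± 0.19. Among 8 genes of cysteinyl leukotriene synthesis and leukotriene breakdown MGST3 had the smallest p in medium against small, with 0.43 ± 0.22 on its brightest probe and -0.58 ± 0.21 and -0.98 ± 0.28 on the other probes, none past the threshold.

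**Figure D3:**
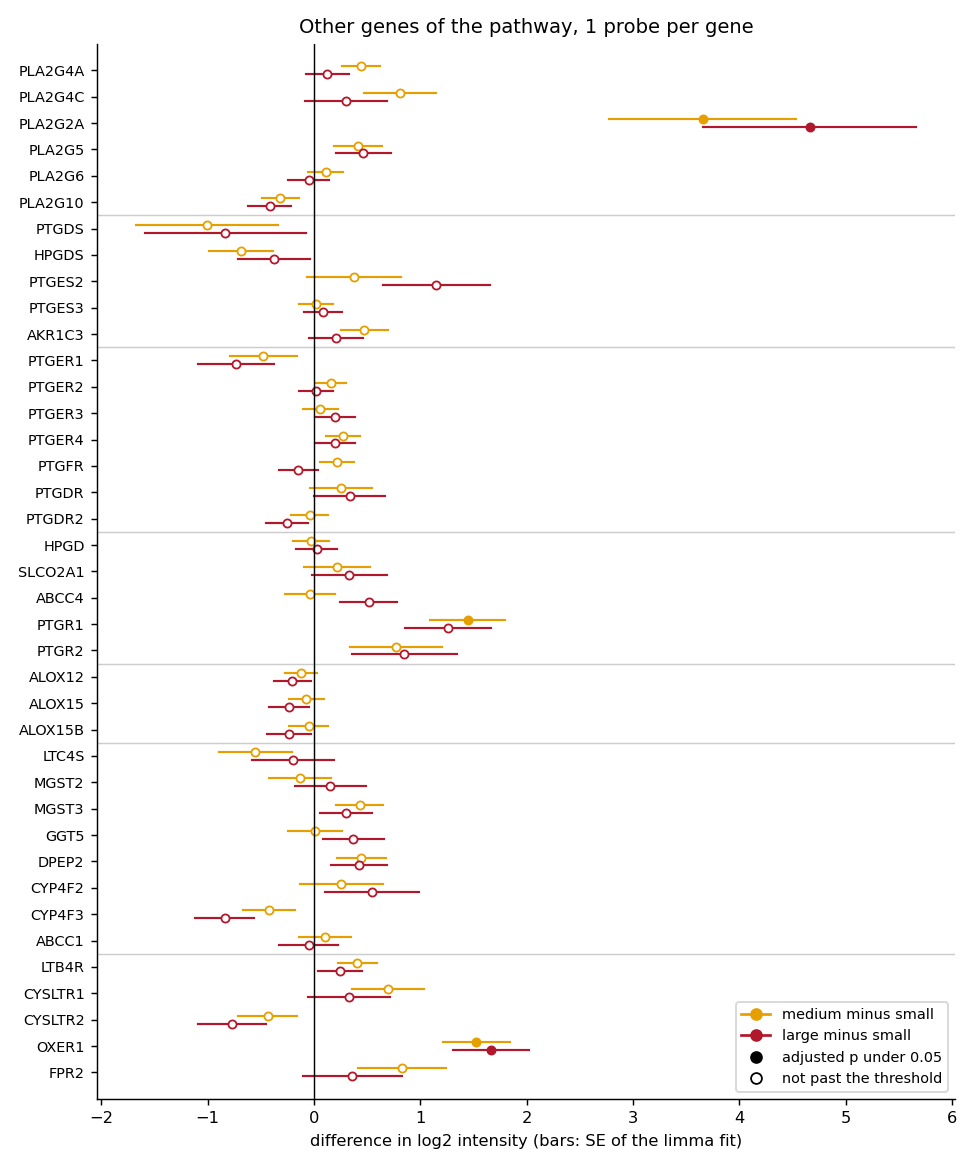
Difference in log2 intensity from the small group (horizontal axis) for the 39 other pathway genes, 1 probe each, for medium minus small and large minus small. Points are estimates, bars the SE of the limma fit, filled points passed an adjusted p of 0.05, and grey lines part the sub-lists. PLA2G2A is filled in both comparisons, at 3.66 and 4.66, as is OXER1 on probe 11017, at 1.53 and 1.67, and PTGR1 is filled in medium, at 1.45.

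By the root mean square difference of log2 intensity over the 12 arteries, with each probe centred on its mean, the genes most like TBXA2R were GSTA5 at 0.281, PCBP4 at 0.322 and CSRP2 at 0.325, out of 23127 single-symbol probes. The standard deviation of TBXA2R itself over the arteries was 0.826 on that scale. These distances are descriptive and come from the same arteries.

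Marker lists of other cell types moved with the same groups. The mean log2 intensity of 9 smooth muscle markers ran from 4.37 to 5.59 in the medium group and from 5.01 to 5.84 in the large group, against 6.0 to 6.45 in the small group, and 0 rose and 2 fell in medium against small. Medium replicates 1 and 4, with the lowest PTGIS, had the lowest smooth muscle means at 4.69 and 4.37. Large replicate 2, whose TBXA2R lay in the small range, had the highest mean of the medium and large arteries at 5.84. For TBXA2R other arteries did not keep this order: large replicate 1, with TBXA2R at 2.31, had a mean of 5.18. Medium replicate 2, with TBXA2R at 3.67, had a mean of 5.59. PTGIS read 135 in large replicate 1, 191 in medium replicate 2 and 177 in large replicate 2. The mean of 14 macrophage markers ran from 3.26 to 4.25 in medium and from 3.24 to 3.97 in large, against 0.67 to 1.73 in small. Of these macrophage markers, 10 rose in medium and 9 in large against small, with median log2 differences of 2.54 and 2.59. In both comparisons 12 of the 14 differences were above 0. CD68, at -0.44 in medium and -0.66 in large, and C1QB, at -0.29 and -0.11, were below 0 and did not pass. In bulk tissue, fewer cells of a type and less RNA per cell cannot be told apart, and the part of these lists in the member values was not tested.

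Thromboxane is made and sensed by platelets, and 9 platelet markers had means from -0.86 to -0.47 in medium and -0.76 to -0.44 in large, against -0.56 to -0.11 in small. Of these 9, 0 rose and 1 fell in medium, GP1BB, at -1.6 log2 units (limma adjusted p 0.0282), and 0 passed in large. The list was split in direction: 5 of 9 differences from small were above 0 in medium and 4 in large. Their medians were 0.05 and -0.11. The granule genes PPBP and PF4 were below the array median in every artery, with 2 and 3 of 12 arteries under the floor of 0.111. ITGA2B and TUBB1 were also below it in every artery, with highest values of 0.272 and 0.463. GP9, GP1BA and SELP were above it in every artery, with lowest values of 2.10, 1.84 and 4.92, while GP1BB and GP6 lay on both sides. The part of platelets in the TBXA2R values was not tested. The 12 endothelial markers ran from 0.59 to 0.85 in medium and from 0.72 to 0.92 in large, against 0.81 to 1.16 in small, and 0 rose and 1 fell in medium. The means of 8 neutrophil markers overlapped between the groups, with 0 called in either comparison against small. In both comparisons 4 of the 8 differences were above 0, with medians of -0.07 in medium and -0.11 in large. Of these markers, CXCR2 was lower in every medium and large artery than in any small one, as for 2.54% of all probes. CXCR2 differed by -1.08 ± 0.27 in medium against small (limma adjusted p 0.0533). Of 9 T cell markers 1 rose in medium and 0 in large. The 7 mast cell markers, among which HPGDS is counted again, had means from 1.36 to 2.15 in medium and 1.35 to 1.80 in large, against 1.65 to 2.30 in small, with 0 called. Of 7 skeletal muscle markers 2 fell in medium and 0 in large. Their means ran from -0.24 to 0.42 in medium and -0.38 to 0.33 in large, against 0.41 to 1.51 in small. None of 8 adventitial fibroblast, 8 B and plasma cell or 6 adipocyte markers passed in either comparison against small.

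**Figure D4:**
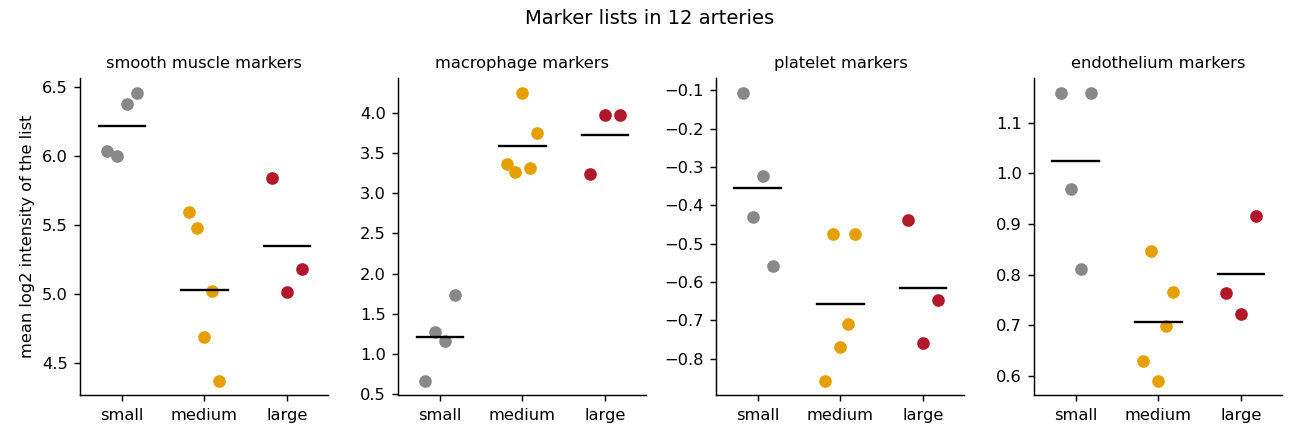
Mean log2 intensity (vertical axis, a separate scale in each panel) of 9 smooth muscle, 14 macrophage, 9 platelet and 12 endothelial marker genes in arteries with small, medium and large plaque. Points are arteries, in order of plaque area within a group, and black lines group means. Smooth muscle means of medium and large arteries, 4.37 to 5.84, lie below those of small arteries, and macrophage means lie above.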

How the data were processed

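Biotinylated cRNA of 12 iliac arteries was hybridized to single-dye CodeLink arrays of human probes, per the labels' protocols. The deposited values are linear probe intensities, with array medians between 1.00 and 1.01, so that some scaling had been applied. Some are below 0, down to -0.314. How images were read, background was taken off and values were scaled is not stated by the labels or the file. The table held 54359 probes, 479 of them empty. A probe was tested if 2 or more arrays per group had a value, which left 53877. Intensities below 0.111, the 5th percentile of positive intensities, were raised to that floor before log2, which touched 5.45% of values.

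Symbols came from the platform annotation: 23267 tested probes had 1 symbol, 900 several and 29710 none here. All 10 member symbols also occur in the macaque annotation T2T-MFA8v1.1, used for names only. Sequences of the probes or members were not used here.

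Limma 3.58.1 (R 4.3.3) was fitted to all tested probes with 3 group means over 12 arrays, and separately with plaque area as a slope over 12 arrays and over the 8 medium and large arrays. P-values are two-sided and adjusted over the 53877 probes (Benjamini-Hochberg), and 0.05 is the threshold. The code was tested on simulated data. Replicates are separate animals. All members were named, each by its brightest complete probe first. Of the other pathway genes the called ones were named, and otherwise the gene of smallest p in a sub-list. A few others were chosen after their values were seen, namely PLA2G4A, LTB4R, ALOX12B, the dim probe of PTGDR and some cell type markers. Members, lists and rules were chosen with earlier results of these data known. Alternatives covered normalization, floor, filters, variance model, array weights, threshold, samples, scale of area, a replicate block and leaving out single animals.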

Additional observations from a re-analysis of the deposited data

Results flagged for a closer look

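Values that stood apart within a group were looked for in the small and medium groups of all member and pathway probes, 130 groups in all. By the rule used, chance alone marks about 1 in 20 groups, and 8 were found, 6.15%. In 1 of the 8, the dim PTGDR probe, the other arteries were all set to the floor, which by itself fixes the result. Without groups that hold such ties, 7 of 127 were found, 5.51%. Among the members' probes, PTGS2 in medium replicate 4 had an intensity of 1.35, against 3.29 to 4.35 in the other medium arteries, and the shared ALOX5AP/CCL4 probe in medium replicate 3 had 23.5, against 51.7 to 71.3.

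In the rest of the pathway the low value was that of PTGR1 in small replicate 2, at 0.204, against 0.630 to 0.752 in the other small arteries. High values were PTGDR2 in small replicate 3 at 6.75, against 4.36 to 4.65, LTC4S, which encodes leukotriene C synthase, in small replicate 1 at 38.6, against 13.3 to 14.2, DPEP2 in medium replicate 1 at 2.51, against 1.44 to 1.5, and OXER1 on probe 107059 in small replicate 4 at 5.84, against 4.68 to 4.71. The dim PTGDR probe in medium replicate 3 had 0.137, and the other medium arteries were all under the floor, at 0.0392 to 0.0789.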

How the results depend on the processing

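In medium against small 1 member probe was called, and 0 with array weights, with the replicate block and with small replicate 4 and medium replicate 5 both left out. Leaving out 1 animal at a time gave 0 to 1. The other comparisons had 0 member probes called under every alternative run. The labels do not say that a replicate number is shared by animals. Deviations of same-numbered arteries correlated between -0.16 and 0.22 (10 pairs, median 0.08), and those of differently numbered ones between -0.20 and 0.23 (37 pairs, median -0.02), so the numbers were not taken as pairs. The block gave 866 called probes of all in medium against small instead of 1693, and 0 instead of 314 for the slope over 12 arteries.

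Of 48 values of member and named pathway probes recomputed 1188 times in all, 1093 kept direction and side of the threshold, 80 lost a call, 7 gained one and 8 changed sign. The sign changes were all of values that had not passed. PTGS2 turned to -0.12 in medium and -0.11 in large against small and to -0.36 for the slope without small replicate 3, and to -0.28 for the slope with array weights. PTGIR in medium against small turned to -0.014 with quantile normalization and to -0.037 without small replicate 1, and LTA4H on its dimmest probe to -0.28 with array weights and -0.24 without small replicate 3. Leaving out 1 animal gave PTGS2 -0.12 to 0.78 in medium, -0.11 to 0.79 in large and -0.36 to 0.71 for the slope, PTGIR -0.037 to 0.14 in medium and that LTA4H probe -0.24 to 0.39 in medium. The cause was not tested.

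Counts over all probes moved more. Medium against small gave 3200 at a threshold of 0.1 and 773 without both of those animals, and 847 to 1567 leaving out 1 animal. Large against small, 617 in all, gave between 316 and 1747 under the other alternatives and 112 to 1216 leaving out 1 animal. Large against medium gave 0 to 4. The other pathway genes called were 2 instead of 3 in medium, 1 instead of 2 in large and 0 instead of 1 for the slope when the probe was the brightest in the small group. The slope over 12 arteries gave 0 to 1586 called probes of all, with 0 without large replicate 3.

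Arrays were few, and probes near the floor understate differences. Values under the floor occurred on probes of PTGDR, MGST3, CYP4F2, ABCC4, FPR2 and GGT1 and on no member probe.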
